A study of Drosophila melanogaster with 2 samples.

Results

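The genes described here are 37 protein-coding genes of neurons and glia in Drosophila melanogaster, out of 13968 protein-coding genes on the chromosome arms. They are 22 named genes of synaptic transmission, electrical excitability, the neuronal surface and glial fate, together with every gene whose symbol starts with nAChR (the nicotinic acetylcholine receptor subunits) or consists of Syt and a number (the synaptotagmins). Taf1 was mapped over them by chromatin immunoprecipitation with sequencing (ChIP-seq) in whole embryos aged 0 to 24 h. Both biological replicates came from transgenic flies of the Taf1-GFP strain, which the labels describe as an insertion targeting Taf1 and in which Taf1 is made as a fusion with eGFP. Sonicated fragments of 200 to 800 bp were pulled down through the GFP tag. The samples formed 1 group, with no untagged, mutant or treated embryos, so the comparisons were between the 37 genes and all protein-coding genes, and between the replicates.

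Taf1 is the scaffold subunit of TFIID, the multiprotein complex that recognises core promoters and helps to place RNA polymerase II at the transcription start site (TSS). Genes of the mature synapse, such as those for SNARE proteins, ion channels and transmitter receptors, are switched on when neurons differentiate in the later part of embryogenesis. In an embryo collected over the whole of development they are active in few cells for part of the time, while repo and gcm act in the glial lineage, and Ddc, gcm and Nrg also act outside the nervous system, in epidermis, blood cells and epithelia.

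The authors deposited 8 peak lists. The larger thresholded list of the pooled reads, which gives the main counts, held 2658 peaks on the arms, and the conservative pooled list held 2180. The thresholded lists of the replicates held 1281 peaks in replicate 1 and 1988 in replicate 2. Each replicate also had a longer list, ordered by the irreproducible discovery rate (IDR), a measure of how well peaks repeat, with 33381 peaks on the arms in replicate 1 and 94109 in replicate 2. The larger and the shorter pooled ranked lists held 60203 and 49375. Read depth is not given in the files, and peak signals are values of the authors' peak caller whose scale is not stated. A gene was counted as occupied when the summit of a peak lay within 500 bp of any of its annotated TSSs.

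At the authors' threshold Taf1 was found at the promoter of 1 of the 37 neuronal and glial genes. This gene was Nrx-1, which encodes neurexin, a presynaptic adhesion protein that organises the active zone. Its share of 2.7% (exact 95% interval 0.0684 to 14.2% over genes) stood beside 13.2% of all protein-coding genes, a background that lies inside the interval. In the conservative pooled list the count was again 1 of 37, beside 11.4% of all protein-coding genes. In the thresholded list of replicate 1 it was 1 of 37, beside 7.23%, and in that of replicate 2 it was 0 of 37, beside 10.6%. The exact interval for 0 of 37 in replicate 2 reached 9.49%, under the 10.6% of all genes. In each of the other thresholded lists the background lies inside the interval of the members. The members were chosen with earlier results of these data known, and ChAT and VAChT share a TSS. The bound in replicate 2 is therefore not a test against the background. In whole embryos, fewer cells that bind Taf1 at a promoter and less binding per cell cannot be told apart. The intervals cover counting over genes and not variation between embryo collections.

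**Figure D1:**
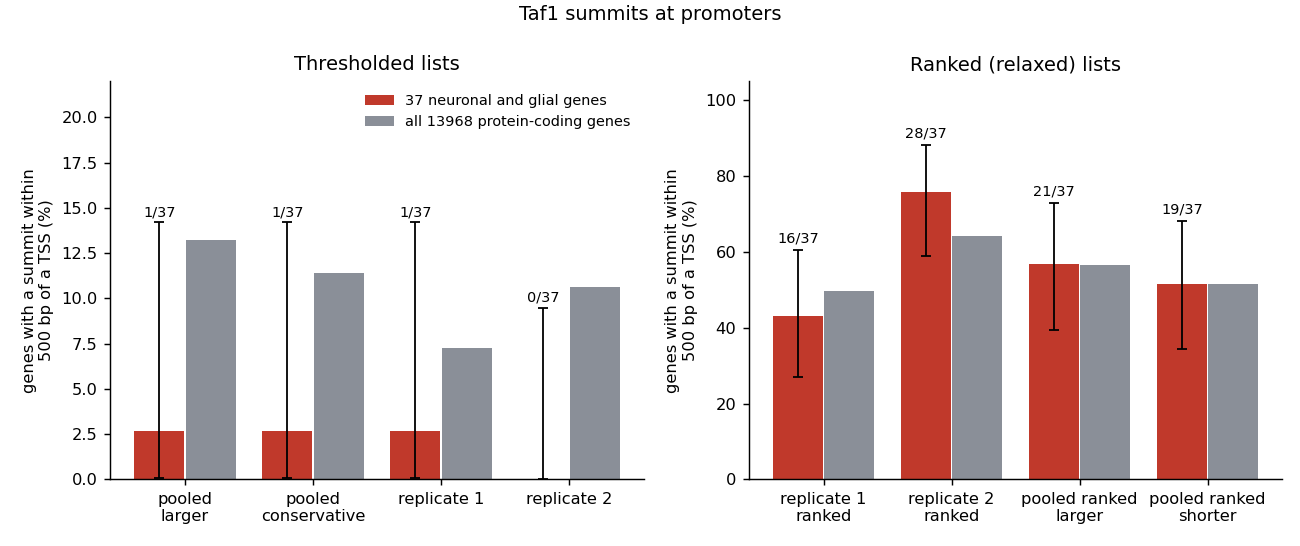
Percent of genes with a Taf1 summit within 500 bp of a TSS (vertical axis) in the 4 thresholded lists (left) and the 4 ranked lists (right), for the 37 neuronal and glial genes (red) and all 13968 protein-coding genes (grey). Error bars are exact 95% intervals over genes and fractions above them are counts. In the thresholded lists the red bars stand for 1 or 0 genes and are lower than the grey bars, while in the ranked lists they lie between 43.2% and 75.7%, on both sides of the grey ones.

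The Nrx-1 peak spanned chr3R:22469097-22469412 on dm6. Its summit lay 74 bp downstream of the second of the gene's annotated TSSs, at 22469181, in an exon that is not coding. The pooled signal was 95.8, which ranked 1222 of the 2658 peaks and was close to the median of that list, 90.7. The replicates had 68.3 in replicate 1, where the peak passed the authors' threshold, and 30.9 in replicate 2, where it was only in the ranked list. Their summits at this promoter were 14 bp apart. The nearest TSS of another gene was that of CG5377, 1098 bp from the summit. The 250 bases before this TSS are shown because the peak at the one occupied promoter begins within them. They lie on the plus strand at chr3R:22468931-22469180, and the 84 bases in capitals are those covered by the peak (sequence from the RefSeq assembly of release 6).
Nrx-1 upstream: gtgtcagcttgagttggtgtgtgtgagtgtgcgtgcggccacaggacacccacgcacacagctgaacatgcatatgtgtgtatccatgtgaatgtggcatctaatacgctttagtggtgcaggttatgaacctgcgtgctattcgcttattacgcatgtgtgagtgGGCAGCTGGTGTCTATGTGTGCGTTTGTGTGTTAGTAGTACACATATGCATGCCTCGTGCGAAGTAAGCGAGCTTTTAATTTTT
The window was 48.0% G and C and held the E-box CAGCTG, and no TATA box, initiator, DPE core or GAGA element of the kinds searched for below.

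Inside the gene bodies, 3 further members held a peak of the main list. The strongest lay in ChAT, which encodes choline acetyltransferase, the enzyme that makes acetylcholine. Its peak at chr3R:18719774-18720089 was in an intron, 14431 bp downstream of the TSS of ChAT and 309 bp from the start of the noncoding gene lncRNA:CR46265. The pooled signal was 138.0, rank 667 of 2658, with 39.5 in replicate 1 and 96.3 in replicate 2, and the peak passed the threshold in both. The start of lncRNA:CR46265 is the reason that this summit was not counted as a body summit away from every TSS. ChAT shares its TSS with VAChT, the vesicular acetylcholine transporter gene nested in its first intron, so the same summit was the nearest one to both promoters.

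The Nrg peak lay at chrX:8533562-8533877, in an intron and 15979 bp downstream of the nearest TSS of the gene. Nrg encodes neuroglian, an L1-type adhesion molecule of neurons, glia and epithelia. Its pooled signal was 65.3, rank 2062 of 2658, with 29.8 in replicate 1 and 34.3 in replicate 2, and of the 2 replicates only replicate 2 passed the threshold. The Syn peak lay at chr3R:10213523-10213838, in an intron 22992 bp downstream of the TSS of Syn, the synapsin gene, whose product coats synaptic vesicles. Timp, a gene for an inhibitor of metalloproteinases that is nested in Syn, had its TSS 674 bp from this summit. The pooled signal at Syn was 65.4, rank 2051 of 2658, with 29.3 in replicate 1 and 35.8 in replicate 2, and neither replicate alone passed the threshold. All 4 peaks in members were also in the conservative pooled list.

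The 151 bases centred on the 3 intronic summits are shown because these are the sites in the genes where pooled binding was found away from the genes' own promoters. They are given on the plus strand, at chr3R:18719857-18720007 for ChAT, chrX:8533645-8533795 for Nrg and chr3R:10213606-10213756 for Syn. Capitals in the ChAT window mark a TATA box match, which is on the minus strand.
ChAT summit: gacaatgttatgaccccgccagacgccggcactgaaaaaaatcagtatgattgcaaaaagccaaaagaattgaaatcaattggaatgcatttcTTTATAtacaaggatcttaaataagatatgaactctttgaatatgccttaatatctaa
Nrg summit: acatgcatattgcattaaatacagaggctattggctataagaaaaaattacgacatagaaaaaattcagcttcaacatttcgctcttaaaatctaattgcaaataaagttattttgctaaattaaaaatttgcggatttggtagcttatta
Syn summit: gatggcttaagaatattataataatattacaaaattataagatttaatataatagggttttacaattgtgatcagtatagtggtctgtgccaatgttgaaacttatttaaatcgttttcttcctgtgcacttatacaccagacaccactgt
The windows held 33.1% G and C in ChAT, 27.2% in Nrg and 29.1% in Syn. The median over all summits of the main list farther than 500 bp from a protein-coding TSS was 33.1% (n = 1253). The Nrg and Syn windows held none of the 9 motifs searched for.

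**Figure D2:**
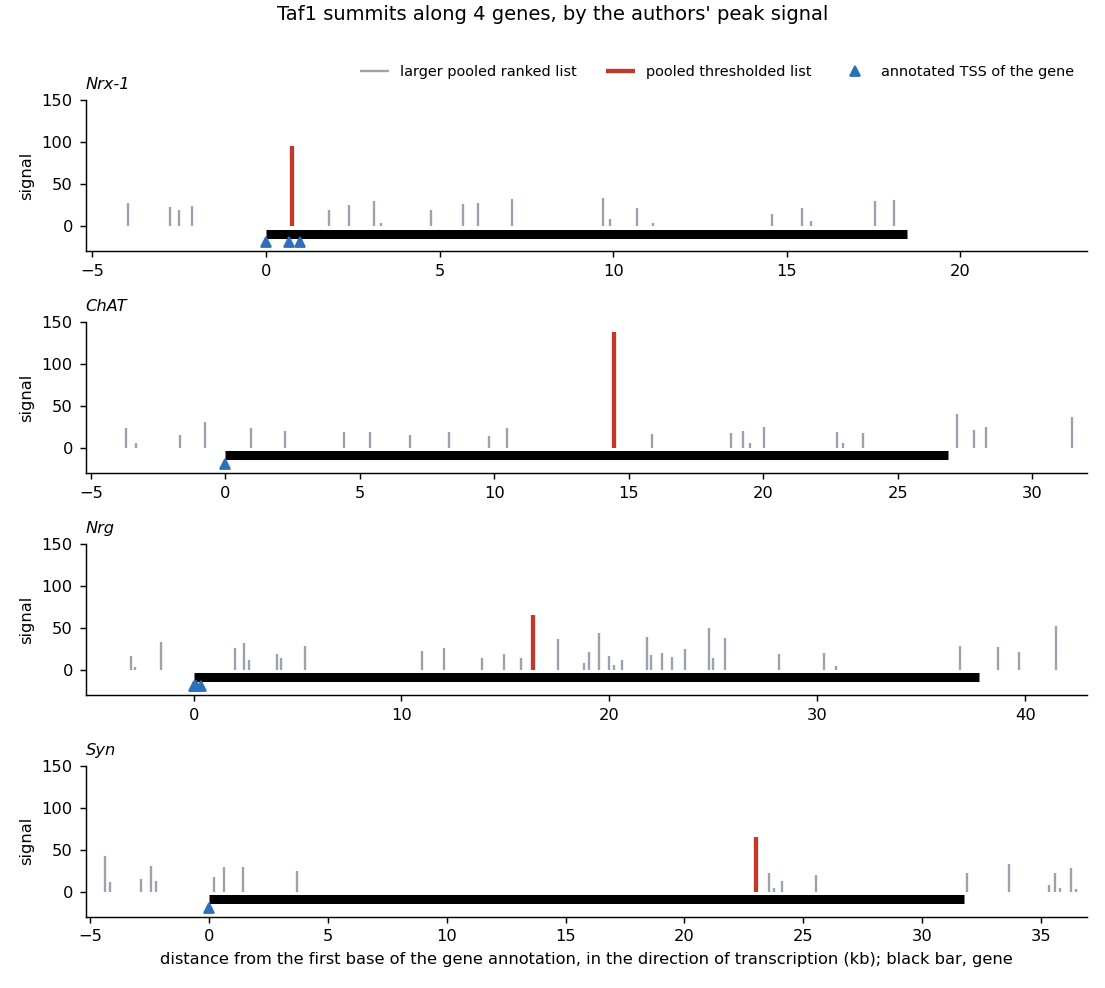
Peak signal (vertical axes, authors' peak caller value) at each summit along Nrx-1, ChAT, Nrg and Syn and 5 kb to either side, against the distance from the start of the gene annotation in kb. Red lines are summits of the pooled thresholded list, grey lines those of the larger pooled ranked list, black bars the genes and blue triangles their TSSs. Each gene has 1 red summit, near a TSS in Nrx-1 and 14.4 to 23.0 kb from the gene's own TSS in ChAT, Nrg and Syn, above many lower grey ones.

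The neuronal and glial genes were long, with a median of 26.8 kb from end to end, against 2.16 kb for all protein-coding genes. Of the 37, 2 (Nrg and Syn, 5.41%) held a body summit farther than 500 bp from every TSS, beside 4.46% of all protein-coding genes. Any summit within the gene ends was found in 4 (10.8%), beside 8.08% of all. Per length the order was the other way. The members held 0.145 summits away from TSSs per 100 kb (2 in 1382.2 kb), against 0.978 over all protein-coding genes, and 0.289 summits of any kind per 100 kb, against 1.69. In the ranked lists the density of body summits was 15.4 per 100 kb in members and 26.9 over all protein-coding genes in replicate 1, and 65.9 and 71.1 in replicate 2.

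The ranked lists hold many weak peaks, and in them the share of neuronal and glial promoters with a summit lay on either side of the background. A promoter summit was found for 16 of the 37 genes in replicate 1 (43.2%, interval 27.1 to 60.5%), beside 49.7% of all protein-coding genes. In replicate 2 it was found for 28 (75.7%, interval 58.8 to 88.2%), beside 64.2%. The larger pooled ranked list had 21 (56.8%, interval 39.5 to 72.9%), beside 56.6%, and the shorter had 19 (51.4%, interval 34.4 to 68.1%), beside 51.4%. Each of these backgrounds lies inside the interval of the members. With every ranked list limited to its 33381 strongest peaks, the members had 21 in replicate 2 (56.8%, against 41.0% of all) and 14 in the larger pooled list (37.8%, against 47.2%). In the shorter pooled list at that length they had 19 (51.4%, against 46.6%). In replicate 1, whose list is the shortest, the members were below all genes at 500 bp and at 250 bp (27.0%, against 35.9%) and above them at 1000 bp (67.6%, against 63.7%).

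Where a promoter summit was present, the median signal in members was near that of all genes and the upper quartile was lower in every ranked list. In replicate 1 the strongest promoter summit of a gene had a median signal of 18.3 over 16 members, against 22.3 over 6940 protein-coding genes. In replicate 2 the medians were 16.5 over 28 members and 15.2 over 8961 genes. In the larger pooled ranked list they were 30.3 over 21 members and 33.0 over 7908 genes. The upper quartiles were 22.5 in members and 33.4 over all genes in replicate 1, and 20.0 and 24.8 in replicate 2. In the pooled reads they were 39.5 in members and 56.6 over all genes in the larger list, and 40.8 and 59.4 in the shorter. The signals of members ran from 2.41, at Gad1, to 95.8, at Nrx-1, in the larger pooled list, while the highest over all genes was 1304.

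**Figure D3:**
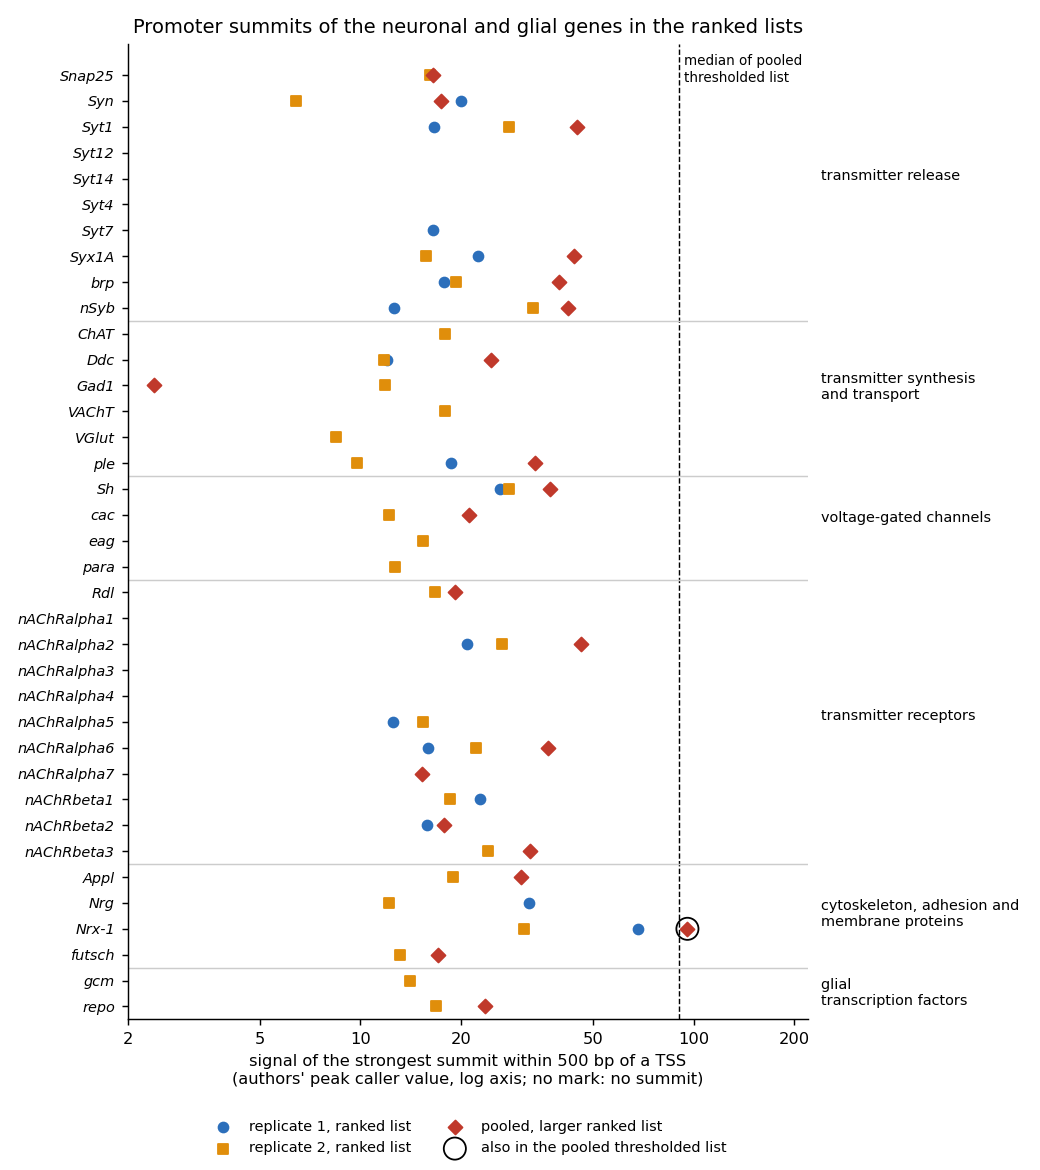
Signal of the strongest summit within 500 bp of a TSS (horizontal axis, authors' peak caller value, log scale) for each of the 37 genes, grouped by role, in the ranked lists of replicate 1 (blue circles), replicate 2 (orange squares) and the pooled reads (red diamonds, larger list). A gene with no mark had no promoter summit in these lists. Nrx-1, circled, is the one gene in the pooled thresholded list, and every other pooled value lies at 45.9 or lower, left of the dashed line at that list's median signal.

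The group of transmitter release genes, in which all the synaptotagmins were placed here, held 10 of the 37 genes. Syt1, the calcium sensor for fast transmitter release, had signals of 16.7 in replicate 1 and 28.0 in replicate 2, and 44.8 in the pooled reads. Its pooled summit lay 229 bp upstream of the TSS, and the replicates' summits were 46 bp apart. Syx1A, the syntaxin of the presynaptic membrane, had 22.5 in replicate 1, 15.7 in replicate 2 and 43.7 in the pooled reads, with the pooled summit 11 bp downstream of a TSS.

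The vesicle SNARE gene nSyb had 12.7 in replicate 1, 33.0 in replicate 2 and 42.1 in the pooled reads. The summits of the replicates were not at the same place, 423 bp downstream in replicate 1 and 176 bp downstream in replicate 2. For brp, which encodes the active zone scaffold Bruchpilot, the signals were 17.8 in replicate 1, 19.3 in replicate 2 and 39.5 in the pooled reads. The brp summits in the replicates lay 3 bp apart, 376 and 379 bp upstream of a TSS. These 4 genes and Syn had a promoter summit in all 4 ranked lists. For Syn the signals were 20 in replicate 1, 6.42 in replicate 2 and 17.5 in the larger pooled list, 185 bp downstream of the TSS. The shorter pooled list had 22.6 for Syn, 456 bp upstream of the TSS.

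Snap25, the other SNARE of the presynaptic membrane, had a summit in replicate 2 (16.2) and in the larger pooled list (16.6). Among the other synaptotagmins, a family of vesicle and membrane proteins most of which bind calcium, Syt7 had one in replicate 1 alone (16.5). Syt4, Syt12 and Syt14 had no promoter summit in any list, so that the synaptotagmins ranged from one of the strongest members to none.

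Of the 6 genes for transmitter synthesis and vesicle loading, all 6 had a promoter summit in replicate 2, beside 64.2% of all protein-coding genes. In replicate 1, 2 of them had one, beside 49.7% of all. Those 2 were the dopamine pathway genes. The tyrosine hydroxylase gene ple had 18.8 in replicate 1, 9.79 in replicate 2 and 33.5 in the pooled reads, with the replicates' summits 9 bp apart. Ddc, for dopa decarboxylase, had 12 in replicate 1, 11.8 in replicate 2 and 24.7 in the pooled reads. The glutamic acid decarboxylase gene Gad1, which serves GABA synthesis, had 11.8 in replicate 2 and 2.41 in the larger pooled list, near the lower end of that list. The shorter pooled list had 18.0 for Gad1, near another of its TSSs. ChAT and VAChT had the same summit at their shared TSS, with 18.0 in replicate 2 alone. VGlut, the vesicular glutamate transporter, had 8.47 in replicate 2 alone.

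All 4 voltage-gated channel genes had a promoter summit in replicate 2, beside 64.2% of all protein-coding genes. In replicate 1, 1 of them had one, beside 49.7% of all. Sh, which encodes a fast inactivating potassium channel, had 26.2 in replicate 1, 27.9 in replicate 2 and 37.0 in the pooled reads. Its summits lay 313 bp downstream of a TSS in replicate 1 and 106 bp upstream of one in replicate 2. These are different promoters of the gene, 72.1 kb apart, and the pooled summit lay at the one found in replicate 1. In replicate 2, para (the voltage-gated sodium channel) had 12.7, eag (another potassium channel) 15.4 and cac (the presynaptic calcium channel) 12.2. Of these 3, cac also had a summit in the larger pooled list, with 21.1.

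The 11 receptor genes were split. Among the nicotinic subunits, which form the excitatory acetylcholine receptors of the fly brain, nAChRalpha2 had 20.9 in replicate 1, 26.6 in replicate 2 and 45.9 in the pooled reads, the second highest pooled value of the members after Nrx-1. Its summits lay 17 bp upstream of the TSS in replicate 1, 47 bp upstream in replicate 2 and 50 bp upstream in the pooled reads. The next subunit, nAChRalpha6, had 16.0 in replicate 1, 22.3 in replicate 2 and 36.6 in the pooled reads, with the pooled summit 6 bp upstream. Both had a summit in all 4 ranked lists.

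Other subunits had summits in fewer lists. In replicate 1 and replicate 2, nAChRalpha5 had 12.5 and 15.4, and nAChRbeta1 had 22.8 and 18.6. For nAChRbeta2 there was a summit of 15.9 in replicate 1 and none in replicate 2, and for nAChRbeta3 one of 24.1 in replicate 2 and none in replicate 1. In the larger pooled list nAChRbeta3 had 32.3 and nAChRbeta2 17.8. The only summit of nAChRalpha7 was one of 15.3 in that list. The promoters of nAChRalpha1, nAChRalpha3 and nAChRalpha4 had no summit in any ranked list. Rdl, which encodes a GABA-gated chloride channel, had 16.7 in replicate 2 and 19.2 in the larger pooled list.

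Among the 4 genes for surface and cytoskeletal proteins, Nrg had 32.1 in replicate 1, 339 bp upstream of a TSS, and 12.2 in replicate 2, 333 bp downstream of one. Appl, the fly homologue of the amyloid precursor protein gene, had 18.9 in replicate 2 and 30.3 in the pooled reads. The microtubule-associated protein gene futsch had 13.1 in replicate 2 and 17.1 in the larger pooled list. The glial genes were similar: repo, a homeobox gene expressed in nearly all lateral glia, had 16.8 in replicate 2 and 23.7 in the pooled reads, and gcm, the switch gene of glial fate, had 14.0 in replicate 2 alone.

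Counted over the 4 ranked lists, 11 genes had a promoter summit in all of them, 8 in 3, 4 in 2, 8 in 1 and 6 in none. The same count was not made over all protein-coding genes, so it does not set the members apart. The 11 were Nrx-1, Syt1, Syx1A, nSyb, brp, Syn, ple, Ddc, Sh, nAChRalpha2 and nAChRalpha6. For Nrx-1 and the 7 members next in pooled signal, the signal in the shorter pooled ranked list was the same as in the larger.

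Few of these summits passed a limit on the authors' own IDR. In the ranked list of a single replicate, the IDR cannot measure agreement between the replicates. The IDR was read from a column without a header, by the usual order of such files. With only peaks of a global IDR of 0.05 or less, a promoter summit remained for 3 of the 37 genes in the larger pooled ranked list (8.11%, beside 16.3% of all protein-coding genes). They were Nrx-1 (IDR 8.09e-05), Syt1 (0.0237) and nAChRalpha2 (0.0473). In the shorter pooled list 1 remained (2.7%, beside 14.4%), which was Nrx-1 (0.00094). In replicate 1 the one gene was also Nrx-1 (2.7%, beside 9.69%), with an IDR of 0.000212, and the next member was Syx1A at 0.601. In replicate 2 Nrx-1 (0.0286) and Syt1 (0.0319) remained (5.41%, beside 12.9%).

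Signal alone did not place a peak in the thresholded list. The pooled signals of nAChRalpha2, Syt1 and Syx1A, 45.9, 44.8 and 43.7, were above the 5th percentile of that list, 42.9. All 2658 of its peaks had a global IDR of 0.00999 or less in the larger pooled ranked list, which those 3 summits did not reach.

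Both ranked lists had one for 14 of the 37 genes (37.8%, against 37.1% of all protein-coding genes). Replicate 1 alone had one for 2 genes, Syt7 and nAChRbeta2 (5.41%, against 12.6% of all), and replicate 2 alone for 14 (37.8%, against 27.0%). Neither had one for 7 genes (18.9%, against 23.3%). The strongest summits of the replicates lay within 100 bp of each other at 8 of the 14 (57.1%, against 56.9%). These 8 were Nrx-1, Syt1, brp, nAChRalpha2, nAChRalpha5, nAChRalpha6, ple and Ddc, at 3 to 96 bp. At the other 6 the summits lay 133 bp (Syx1A) to 72.1 kb (Sh) apart, so that a summit in both replicates was not always at the same site or TSS. The ranked list of replicate 2 was the longer one, and the part of list length in the 14 genes seen there alone was not tested.

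Taf1 peaks of the main list were also sparse in the neighbourhood of these genes. The distance from the closest TSS of a gene to the nearest summit had a median of 19.0 kb over the 37 genes (quartiles 13.4 and 30.7 kb), against 12.2 kb over all protein-coding genes (quartiles 3.5 and 32.7 kb). Within 2 kb there was a summit for 2 members (5.41%), against 19.1% of all, within 5 kb for 3 (8.11%), against 30.3%, and within 10 kb for 6 (16.2%), against 45.0%. The upper quartiles were close, at 30.7 kb for the members and 32.7 kb for all genes. The long median was not particular to the members. The other neuronal genes described below had a median of 18.6 kb, with 17.4% within 2 kb and 33.9% within 10 kb. The medians were 12.3 kb for proneural, Notch and neuroblast genes and 10.1 kb for muscle genes.

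**Figure D4:**
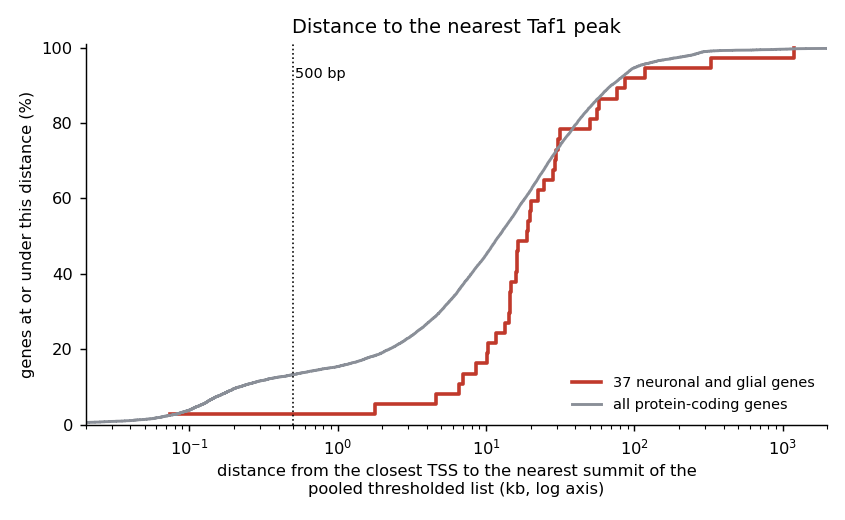
Cumulative percent of genes (vertical axis) against the distance from their closest TSS to the nearest summit of the pooled thresholded list (horizontal axis, kb, log scale), for the 37 neuronal and glial genes (red) and all protein-coding genes (grey). The red curve stays at 1 gene up to 1.8 kb and lies below the grey one between 0.1 and 20 kb, with medians of 19.0 and 12.2 kb.

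For 20 of the 37 genes (54.1%) the nearest summit lay within 500 bp of the TSS of another protein-coding gene, against 60.5% of all protein-coding genes. The nearest summit to nSyb, 1.8 kb away with a signal of 134.7, was 161 bp from the TSS of Bgb, which encodes a partner of Runt domain proteins. At eag it was 4.58 kb away (72.5), 150 bp from the TSS of pdgy. The nearest to Appl, 7.03 kb away, was the promoter peak of its neighbour elav (380.4, 247 bp from the elav TSS), the RNA-binding protein gene used as a marker of neurons. The nearest to Ddc, 13.4 kb away, was the promoter peak of brat (80.2), a gene of neural stem cell differentiation. At Syx1A (6.55 kb, 102.3) and repo (8.51 kb, 65.2) no other protein-coding TSS was within 500 bp of the summit. The clustered receptor genes nAChRalpha1, nAChRalpha2 and nAChRbeta2 had the same nearest summit, at Cftr (321.9), 86.1, 57.8 and 28.1 kb away. The longest distances were those of Snap25, 1200 kb, and nAChRalpha4, 328 kb, both to the summit at Chro.

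For each gene, the 1 kb upstream of its most upstream TSS was searched for a TSS of another protein-coding gene pointing the other way. Such a TSS was found for 8 of the 37 (21.6%, interval 9.83 to 38.2%), against 35.2% of all, a background inside the interval. The share was 22.9% in the other neuronal genes described below, 15.4% in proneural, Notch and neuroblast genes and 24.4% in muscle genes. These pairs were Nrx-1 with CG5377, Syt14 with CG9795, Syt4 with Gld, nAChRbeta2 with DZIP1, Gad1 with CG14989, Appl with CG4293, eag with CG9030 and nAChRbeta3 with Spp. The one occupied member, Nrx-1, was among them by its most upstream TSS. Its summit was not at that TSS but at the second, 0.669 kb downstream, and lay 1098 bp from the TSS of CG5377. Without such a partner, 0 of 29 members were occupied, against 7.32% of all protein-coding genes without one. That share was 10.7% in the other neuronal genes, 12.1% in the proneural, Notch and neuroblast genes and 6.45% in the muscle genes. No interval was computed for the 29 members, so the count of 0 does not show a lower share.

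Other genes of the same roles, written down by symbol, were set beside the members. Of 113 symbols 109 were annotated, and 13 of the 109 were occupied in the main list (11.9%, interval 6.51 to 19.5%). The interval of the 37 genes, 0.0684 to 14.2%, overlaps this one, and the difference was not tested. The occupied genes of transmitter release were EndoA (66.8), for the endocytic protein endophilin A, and stnA and stnB, the stoned genes, which share 1 summit (70.6). Among channels there were NaCP60E (114.5), sei (90.2) and Ca-beta (69.7), of which NaCP60E shared its summit with the ribosomal protein gene RpL41 and sei with gammaSnap1.

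Among adhesion and cytoskeletal genes, sdk (140.3), Fas2 (93.8), Nrt (89.3), Ank2 (79.3) and robo2 (65.4) were occupied, which encode adhesion molecules, an ankyrin and an axon guidance receptor. Neither the 26 other receptor genes nor the 11 other genes of transmitter synthesis and transport held an occupied promoter in the main list. The strongest peak at any gene of these roles was that of moody, a receptor gene of the glial blood-brain barrier, with 507.8 in the pooled reads, 235.7 in replicate 1 and 275.4 in replicate 2. The other glial gene was Gli, for gliotactin, with 86.3. In the main list 0 of 11 members and 0 of 26 other receptor genes were occupied, beside 13.2% of all protein-coding genes. In the thresholded list of replicate 2, 1 of the 26 other receptor genes and 1 of the 11 other synthesis and transport genes were occupied.

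A list of proneural, Notch and neuroblast genes, called the earlier neural genes here, was occupied at 6 of 39 (15.4%, interval 5.86 to 30.5%). They were N, E(spl)m3-HLH, mam, numb, brat and elav. The strongest of these peaks was that of elav (380.4), a marker of neurons, so the list is not one of progenitor genes alone. Mesoderm and muscle genes, another tissue that differentiates late, were occupied at 5 of 41 (12.2%, interval 4.08 to 26.2%), namely tin, mbc, sls, Msp300 and if. Both intervals overlap that of the 37 neuronal and glial genes. Per 100 kb of gene body, the members held 0.289 summits of any kind, against 0.735 for the other neuronal genes, 2.24 for the earlier neural genes and 2.37 for the muscle genes. Summits away from every TSS were 0.145, 0.467, 1.73 and 2.01 per 100 kb, in the same order. The median gene lengths were 26.8, 15.5, 3.36 and 9.76 kb, and the part of gene length in these densities was not tested.

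The promoters of most members were richer in G and C than the usual promoter, a property that the choice of genes had not used. Over the 300 bases from 250 before to 50 after the most upstream TSS, G and C made up a median of 53.3% (range 32.0 to 59.7%) in the 37 genes, against 38.0% over all protein-coding genes. The 1850 occupied protein-coding genes had a median of 36.7%. Of the members, 24 (64.9%) were at or above 44.3%, the upper quartile of all genes, where 25.3% of all genes were. The highest were para and nAChRalpha1 at 59.7% and futsch at 59.3%, and the lowest nAChRbeta2 at 32.0%. Nrx-1, Syn and nAChRalpha4 had 35.0% and Syt7 37.0%, and these 4 and nAChRbeta2 were below the median of all genes. The Nrx-1 value is for its most upstream TSS and not for the occupied one, 0.669 kb downstream. The 250 bases before the occupied TSS were 48.0% G and C. The composition was not particular to these genes, with medians of 45.7% for the other neuronal genes, 49.3% for the earlier neural genes and 45.0% for the muscle genes. At the most downstream TSS the members' median was 46.0%, against 38.7% for all. The part of base composition in the detection of peaks was not tested.

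The same windows were searched for short promoter motifs on both strands, counting matches that overlap. These were the TATA box (TATAAA), the initiator (TCAGTT or TCAGTC), the DPE core (AGACGTG or GGTCGTG, and also GGACGTG or AGTCGTG), the DNA replication-related element DRE (TATCGATA), the cores of Ohler motifs 1 (GGTCACACT), 6 (GGTATTTT) and 7 (CAGCNCT), the E-box (CAGCTG) and the GAGA element (GAGAG). None of these strings contains another. A match describes the letters only.

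GAGAG, the letters recognised by GAGA factor, occurred in 26 of the 37 windows (70.3%), against 29.7% of all protein-coding genes and 30.8% of the occupied ones. It was found in 46.8% of the other neuronal genes, 61.5% of the earlier neural genes and 46.3% of the muscle genes. On the gene's own strand alone it was in 12 (32.4%), against 16.7% of all. At the most downstream TSS it was in 18 (48.6%), against 30.5%. The TATA box ran the other way, in 7 of 37 (18.9%), against 45.8% of all protein-coding genes and 46.2% of the occupied ones. The 7 were Snap25, Syn, Syt4, Syt12, Syx1A, futsch and repo. In the position usual for a TATA box, starting 40 to 20 bases before the TSS on the gene's strand, it was found in repo alone (2.7%, against 7.78%). On the gene's own strand alone, at any position, it was in 4 members (10.8%, against 32.1%), and at the most downstream TSS in 11 (29.7%, against 44.5%).

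Counted on both strands, the other motifs were nearer to the background. The initiator was in 14 of 37 windows (37.8%, against 35.1%), Ohler motif 7 in 10 (27.0%, against 16.1%) and the E-box in 9 (24.3%, against 17.6%). The DPE core was in 2, Appl and Nrx-1 (5.41%, against 6.33%), and DRE in 2, Nrg and eag (5.41%, against 9.36%). The Nrx-1 window is at its most upstream TSS. The 250 bases before its occupied TSS held the E-box and none of the other motifs. Ohler motifs 1 and 6 were each found in 1, Syx1A (2.7%, against 6.04% for motif 1 and 5.26% for motif 6). On the gene's own strand alone, Ohler motif 7 was in 9 (24.3%, against 9.92%), and at the most downstream TSS in 7 (18.9%, against 15.8%).

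**Figure D5:**
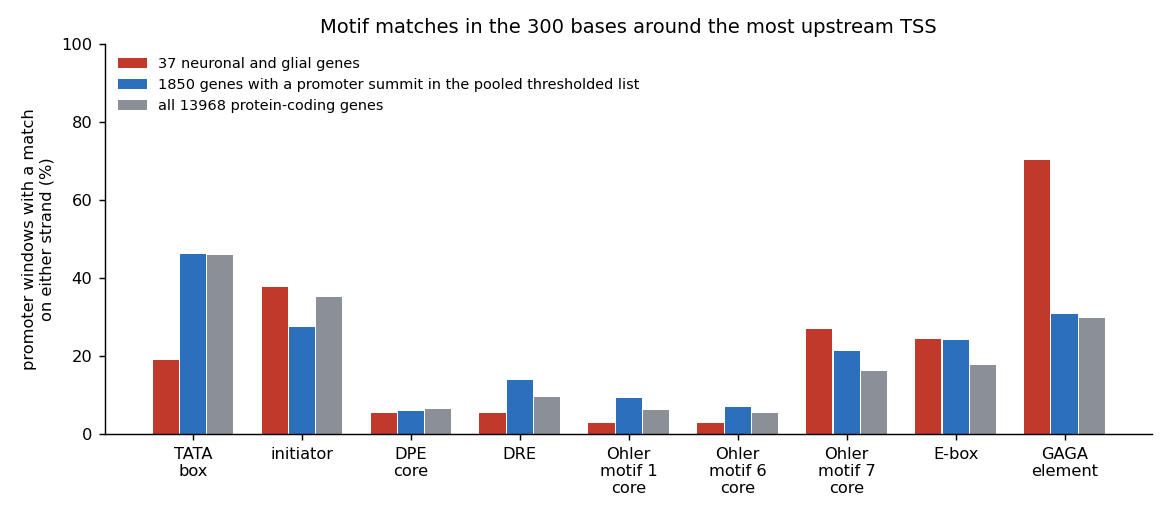
Percent of promoter windows with at least 1 match on either strand (vertical axis) for each of 9 motifs, in the 37 neuronal and glial genes (red), the 1850 protein-coding genes with a promoter summit in the pooled thresholded list (blue) and all 13968 protein-coding genes (grey). The GAGA element stands at 70.3% in the members, against 30.8% of occupied and 29.7% of all genes, and the TATA box at 18.9%, against 46.2% and 45.8%.

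Of the members whose upstream bases touch no protein-coding exon, Syn and nAChRalpha2 had the most GAGAG matches in the 250 bases before the TSS, 5 and 4. These are shown to set a GAGA-rich promoter with weak Taf1 summits in all 4 ranked lists (nAChRalpha2, pooled signal 45.9) beside one whose promoter summits were weaker still (Syn). The Syn signal was 17.5 in the larger pooled list and 22.6 in the shorter. The windows are chr3R:10190439-10190688 for Syn and chr3R:24485178-24485427 for nAChRalpha2, both on the plus strand, with matches on either strand in capitals.
Syn upstream: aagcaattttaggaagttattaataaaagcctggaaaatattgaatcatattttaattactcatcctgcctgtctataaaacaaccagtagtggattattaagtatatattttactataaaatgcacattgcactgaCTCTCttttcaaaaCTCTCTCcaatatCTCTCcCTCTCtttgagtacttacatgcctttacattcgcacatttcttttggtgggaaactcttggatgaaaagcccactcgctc
nAChRalpha2 upstream: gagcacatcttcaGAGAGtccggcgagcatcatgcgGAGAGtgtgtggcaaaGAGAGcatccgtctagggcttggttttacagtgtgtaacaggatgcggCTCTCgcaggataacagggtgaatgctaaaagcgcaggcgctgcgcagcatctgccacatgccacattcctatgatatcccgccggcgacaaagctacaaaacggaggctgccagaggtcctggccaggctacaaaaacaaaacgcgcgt
G and C made up 34.0% of the Syn bases and 55.2% of the nAChRalpha2 bases, and in Syn all matches were on the minus strand. The 60 bases before the TSS of repo, at chr3R:18236132-18236191 on the plus strand, are shown for the one positioned TATA box, in capitals, which starts at -31 from the TSS.
repo upstream: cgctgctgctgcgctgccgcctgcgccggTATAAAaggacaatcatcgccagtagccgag
The pooled summit at repo lay 51 bp downstream of the TSS with a signal of 23.7, and replicate 1 had none there.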

How the data were processed

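Taf1-eGFP was mapped by ChIP-seq in 2 biological replicates of whole embryos, with coordinates on dm6 (per the labels). The aligner and caller were not given in the sources used here. As recorded in the lists of files that the authors deposited, they called peaks on each replicate and on the pooled reads, with a control library, and the thresholded lists also name 1 further input file. The signal of a peak is the deposited value of the authors' peak caller, with no scale given. The −log10 of the global IDR was used as deposited in the ranked lists, where it is capped at 5. These lists have no header, so its column was taken from the usual order of IDR output, and every IDR value here rests on that. Another 32 columns of the ranked lists hold per-sample values that were not used.

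Peaks off the arms were left out. A summit was the peak start plus the deposited offset. The annotation of Ensembl release 115 (18277 genes, 13968 protein-coding) gave genes and TSSs, matched by symbol, and promoter windows were cut from the RefSeq release 6 assembly at those TSSs, since no promoter table was used here. A body summit lay between the ends of a gene. The 95% intervals are exact Clopper-Pearson ones over genes and cover counting error only. Depth is unknown, and 2 replicates of 1 group allow no test between groups of samples. Members and lists were chosen with earlier results of these data known. All 37 members are named, with full values for those with a peak in the pooled thresholded list and the 8 with the highest pooled promoter signal. The counting of summits was tested on simulated peaks. Alternatives were the other peak lists, windows of 250 and 1000 bp, the nearest TSS only, the peaks above the median signal, equal list lengths, other IDR limits and 1 strand. The most downstream TSS was added after seeing the data. The software was Python 3.11.15, numpy 2.4.6, pandas 2.3.3, scipy 1.17.1 and matplotlib 3.10.9.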

Additional observations from a re-analysis of the deposited data

How the results depend on the processing

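The count of 1 occupied member, Nrx-1, was the same in the conservative list, in replicate 1, with windows of 250 and 1000 bp, with the nearest TSS only and among peaks above the median signal, and ranged from 0 to 1 with 1 replicate left out, at 0 without replicate 1. Among the other neuronal genes the 13 became 8 with a 250 bp window, 4 among peaks above the median signal and 6 to 9 with 1 replicate left out, the 6 being without replicate 2, and the 6 earlier neural genes became 3 among peaks above the median signal. The 2 members with a body summit away from every TSS became 4 with TSS summits counted too, and ranged from 0 to 1 with 1 replicate left out, at 0 without replicate 2 and 1 without replicate 1. In the ranked list of replicate 1 the 16 members (43.2%, against 49.7% of all genes) became 10 with a 250 bp window (27.0%, against 35.9%), 25 with 1000 bp (67.6%, against 63.7%) and 1 at a global IDR of 0.05 or less. At that IDR the 28 of replicate 2 became 2, the 21 of the larger pooled list 3 and the 19 of the shorter 1. At an IDR of 0.01 or less, the 2 of replicate 2 became 0 and the 3 of the larger pooled list 1. Members with a promoter summit in both replicates, 14 at 500 bp, were 9 at 250 bp and 22 at 1000 bp. The share of all genes in both was not counted at these windows. In each ranked list alone it also rose from 250 to 1000 bp, from 35.9% to 63.7% in replicate 1 and from 46.4% to 80.0% in replicate 2. The causes were not tested. No paired analysis was possible because there was 1 group. Depth is unknown, so a weak promoter peak may have been missed, and none of the counts shows that Taf1 was absent from a promoter.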
